A study of Mus musculus with 8 samples.

Results

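The proteasome genes of mouse natural killer (NK) cells were examined in 8 RNA-seq libraries. Members were the rows of the count data whose symbol begins with Psma to Psmg followed by a digit, pseudogene names left out, with at least 10 reads summed over the 8 libraries. This rule gave 48 genes of the 48321 symbols listed, 16186 of which had at least 10 reads, and all 48 passed the filter on low counts that left 12595 genes for testing. NK cells were freshly sorted as CD45+ TCRb- NK1.1+ cells from lung and spleen of mice on a C57/Bl6 background. The 4 groups, with 2 libraries each, were lung WT, lung KO, spleen WT and spleen KO, where KO stands for deletion of both copies of the Ccl5 proximal enhancer (Ccl5-PE), made in the germline by CRISPR/Cas9, and every control was wild type. All 4 groups were at steady state without treatment, and the labels give neither the age nor the sex behind a library. The sources used here leave unsaid if different mice gave the 2 libraries of each group, so the p-values measure the spread between libraries, which may be technical. Between 3132963 and 26482366 reads were counted per library, with the shallowest and the deepest library both in the spleen KO group. Ccl5 itself, the gene next to the deleted enhancer, was at 18350 to 19518 counts per 1000000 counted reads (CPM) in lung WT and 2992 to 3195 CPM in lung KO, and at 15664 to 16679 CPM in spleen WT and 2432 to 2676 CPM in spleen KO. The sorted cells carried the RNA of NK cells, since all 9 NK markers were detected, with a summed level of 36965 to 52718 CPM per library.

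The proteasome degrades proteins tagged with ubiquitin. Its barrel-shaped core particle, the 20S, is built of rings of alpha subunits (Psma genes), which gate the entrance, around rings of beta subunits (Psmb genes), among which Psmb5, Psmb6 and Psmb7 carry the chymotrypsin-like, caspase-like and trypsin-like activities. The 19S regulatory particle, made of a ring of ATPases (Psmc genes) and of non-ATPase subunits (most Psmd genes), recognises and unfolds the substrates. In lymphocytes and in cells exposed to interferon-gamma, Psmb8, Psmb9 and Psmb10 take the places of Psmb5, Psmb6 and Psmb7 in newly assembled cores, which are then called immunoproteasomes and favour the peptides that MHC class I molecules present. The 48 members comprised 7 alpha and 7 constitutive beta genes, 3 immunoproteasome genes, 6 ATPases, 14 Psmd genes, 5 activators (Psme), 1 inhibitor (Psmf1), 4 assembly genes (Psmg) and Psmc3ip, whose symbol fits the pattern although its protein is a meiotic recombination cofactor and no proteasome subunit. The testis core gene Psma8, with 1 read, and the thymus core gene Psmb11, with 0 reads, fell below the rule.

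Windows around a RefSeq start of 4 genes named in the results below are shown to place them in the genome. They are RefSeq promoter windows on GRCm38.p6, from 250 bases before to 50 bases after the annotated start, with 1 of the searched motifs in capitals. By the GENCODE M21 gene models, the windows of Psmb8, Psmb9 and Psme1 lie inside the gene, downstream of its first base (34197721, 34187764 and 55578123). That of Psmb6 reaches before the first base of the gene (70525367). For Psmb6 (chr11:70525107-70525406, plus strand), the constitutive core gene with the largest change in lung KO, the capitals mark TGACNNNGC, the core of the antioxidant response element. For Psmb8 (chr17:34197945-34198244, plus strand), the most abundant immunoproteasome gene, they mark TTCNNNGAA, the core of the gamma-activated site. For Psmb9 (chr17:34187281-34187580, minus strand), which lies next to Tap1 in the MHC region, they mark CCAAT, here read on the opposite strand. For Psme1 (chr14:55578244-55578543, plus strand), an interferon-inducible activator, they mark the core of the interferon-stimulated response element (GAAA, any 2 bases, GAAA), also on the opposite strand. This match lies after the start, with its first base at position 10.
Psmb6: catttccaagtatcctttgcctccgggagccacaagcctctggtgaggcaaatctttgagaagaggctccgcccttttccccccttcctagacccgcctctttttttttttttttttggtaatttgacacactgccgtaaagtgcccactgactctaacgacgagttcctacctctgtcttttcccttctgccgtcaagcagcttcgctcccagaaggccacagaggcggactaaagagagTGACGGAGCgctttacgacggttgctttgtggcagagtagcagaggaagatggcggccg
Psmb8: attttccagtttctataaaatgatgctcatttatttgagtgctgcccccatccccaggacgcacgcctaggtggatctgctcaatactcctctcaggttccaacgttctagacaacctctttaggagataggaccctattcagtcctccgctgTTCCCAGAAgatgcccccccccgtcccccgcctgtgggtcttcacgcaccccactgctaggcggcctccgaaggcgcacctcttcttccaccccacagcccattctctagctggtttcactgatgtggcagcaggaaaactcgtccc
Psmb9: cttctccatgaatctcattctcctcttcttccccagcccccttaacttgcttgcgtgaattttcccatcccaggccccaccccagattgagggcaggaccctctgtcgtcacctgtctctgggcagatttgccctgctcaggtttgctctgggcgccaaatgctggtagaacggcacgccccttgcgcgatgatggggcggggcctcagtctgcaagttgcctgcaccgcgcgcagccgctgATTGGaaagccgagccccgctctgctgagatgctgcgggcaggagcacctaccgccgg
Psme1: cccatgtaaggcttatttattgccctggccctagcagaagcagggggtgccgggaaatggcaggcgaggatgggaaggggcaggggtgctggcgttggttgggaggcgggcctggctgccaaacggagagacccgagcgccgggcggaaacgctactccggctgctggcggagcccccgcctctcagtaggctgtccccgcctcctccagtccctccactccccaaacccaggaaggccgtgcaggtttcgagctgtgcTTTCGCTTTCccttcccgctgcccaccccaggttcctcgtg

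In all, 11 motifs were searched on both strands in the 44 windows that 41 of the members had, and overlaps between motifs were allowed. TGACNNNGC was present in 13.6% of the member windows and in 12.4% of all 32841 windows of the same length, and the 6 member genes with it were Psmb5, Psmb6, Psmc6, Psmd9, Psmd12 and Psme4. The interferon-stimulated response element core was present in 5 member windows (Psmb3, Psmd4, Psmd9, Psme1 and Psmg4), or 11.4%, against 3.44% of all windows. The ETS motif CCGGAAG stood in 36.4% of the member windows against 8.86% of all windows, and the GC box GGGCGG in 54.5% against 35.67%. TTCNNNGAA was found in 6.8% of the member windows against 8.3% of all, and CCAAT in 31.8% against 37.42%. The interferon regulatory factor element (GAAAG, any base, GAAA), which overlaps the response element core, was in 6.8% of the member windows against 1.1% of all, and the nuclear respiratory factor 1 motif (GCGCA, any base, GCGC) in 15.9% against 4.6%. The AP-1 site TGAGTCA was in 2.3% against 5.2%. The NF-kappaB site (GGGA, any base, TTTCC) and the cyclic AMP response element TGACGTCA were in 0 member windows, against 0.41% and 1.79% of all. The comparison windows were not limited to genes expressed in these cells, whereas all members were, so the 2 sets are unlike. These matches describe letters in a window and were not tested against the expression values.

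Proteasome RNA made up between 0.902% and 1.102% of the counted reads of a library. Compared per kilobase of gene model, the highest members over the 8 libraries were Psmb2 (262 CPM per kb), Psmb6 (243 CPM per kb) and Psmb8 (235 CPM per kb), and the lowest were Psme4 (4.49 CPM per kb) and Psmg3 (4.04 CPM per kb). Psmb8 was thus among the 3 highest members on this scale. Psmb10 reached 152 CPM per kb and Psmb9 28.8 CPM per kb on the same scale, whereas their constitutive counterparts Psmb7 and Psmb6 stood at 24.9 and 243 CPM per kb. The length used was that of all annotated exons of a gene merged, such as 3660 bases for Psmb9, 3421 for Psmb7 and 899 for Psmb5. It may exceed the transcript that the cells express, so the order of genes on this scale is uncertain. The summed CPM of the 14 constitutive core genes was 3739 to 3865 in lung WT and 2982 to 3009.9 in lung KO, and it was 3124 to 3234 in spleen WT and 4009 to 4256 in spleen KO, so that neither organ's genotypes overlapped and the KO lay on opposite sides of WT in the 2 organs. The KO mean of this sum differed from the WT mean by -21.2% in lung (2996 ± 19.8 against 3802 ± 88.9 CPM; SD, n = 2) and by 30% in spleen (4133 ± 175 against 3179 ± 78 CPM; SD, n = 2). The 20 Psmc and Psmd genes, grouped here as 19S genes with the assembly chaperones Psmd5, Psmd9 and Psmd10 counted among them, differed by -11.4% in lung and 10% in spleen. The sum of the 3 immunoproteasome genes differed by -5.26% in lung (1011 ± 21.9 against 1067 ± 18.3 CPM; SD, n = 2) and by 10.4% in spleen (1344 ± 36.9 against 1218 ± 46.7 CPM; SD, n = 2). With library totals the log2 change of the 19S sum went from -0.175 to -0.084 in lung and from 0.138 to 0.067 in spleen, and that of the immunoproteasome sum turned from -0.078 to 0.012 in lung and went from 0.143 to 0.072 in spleen.

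**Figure D1:**
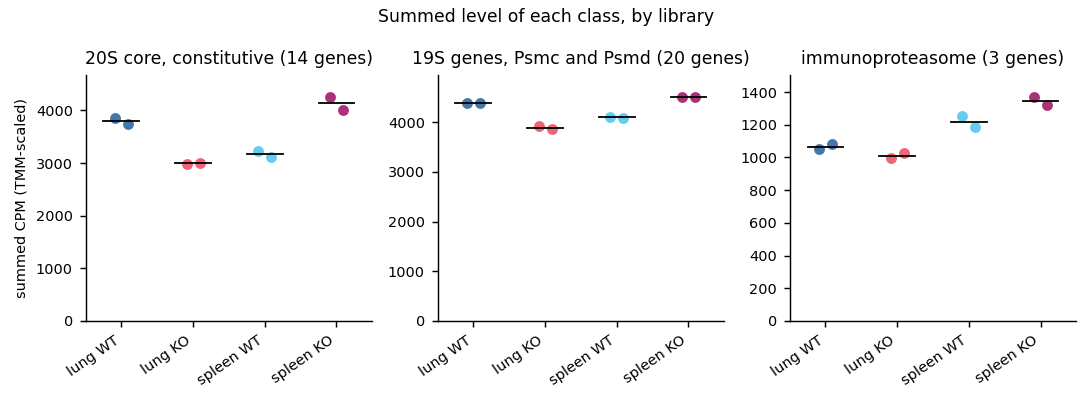
Summed CPM of the constitutive core, the 19S (Psmc and Psmd) and the immunoproteasome genes on linear axes that start at 0, 1 point per library and a bar at the mean of each group of 2 libraries. The core sum was lowest in lung KO (2982 and 3009.9 CPM) and highest in spleen KO (4256 and 4009 CPM), while both lung groups were below both spleen groups for the immunoproteasome genes.

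In lung, the question was which proteasome genes differed between NK cells with and without the enhancer. Most of those that moved were lower in KO: of the 48 members, 30 fell, 7 rose and 11 did not pass the test (edgeR's quasi-likelihood test, Benjamini-Hochberg adjusted p below 0.05 over all genes tested). Over all 12595 genes, 26.4% were called lower and 29.2% higher, and the median log2 fold change was 0.02, compared with -0.19 over the members. The changes were small, since 2 members rose and 2 fell by 1.5-fold or more, against 26.7% of all genes called at that size in either direction. The constitutive core held 10 genes that fell and 2 that rose among 14, with a median log2 fold change of -0.31, and the 19S genes 14 that fell and 3 that rose among 20, with a median of -0.18. Among the immunoproteasome genes 1 of 3 fell.

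In spleen, the same contrast gave the opposite picture. Of the 48 members, 28 rose in KO, 5 fell and 15 did not pass the test, while 28.2% of all genes were called higher and 28.9% lower and the median was 0.00 over all genes and 0.17 over the members. No member changed by 1.5-fold or more (0 of 48, with 33 called at any size), whereas 23.8% of all genes did. Among the 14 constitutive core genes 12 rose and 0 fell, with a median log2 fold change of 0.36. The 19S group had 10 genes that rose and 3 that fell, with a median of 0.11, and 2 of the 3 immunoproteasome genes rose.

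The lung and spleen contrasts share no libraries. Of the 26 members called in both, 22 fell in lung and rose in spleen, 3 rose in lung and fell in spleen (Psmd1, Psmd2 and Psme3), and 1, Psmb7, rose in both. Opposite directions were thus found for 96.2% of the members called in both, against 77.9% of the 4367 genes called in both among all genes tested. A fall in lung with a rise in spleen made up 84.6% of those members and 36.9% of those genes. The difference between the KO effects was also tested directly. It was called for 39 members, and the KO effect was lower in lung for 32 of them and higher in lung for 7, against 29.0% and 32.5% of all genes. At 1.5-fold or more the difference was called for 15 members in the first direction and 2 in the second, against 43.3% of all genes in either direction. The median difference was -0.66 over the core genes and 0.03 over all genes.

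**Figure D2:**
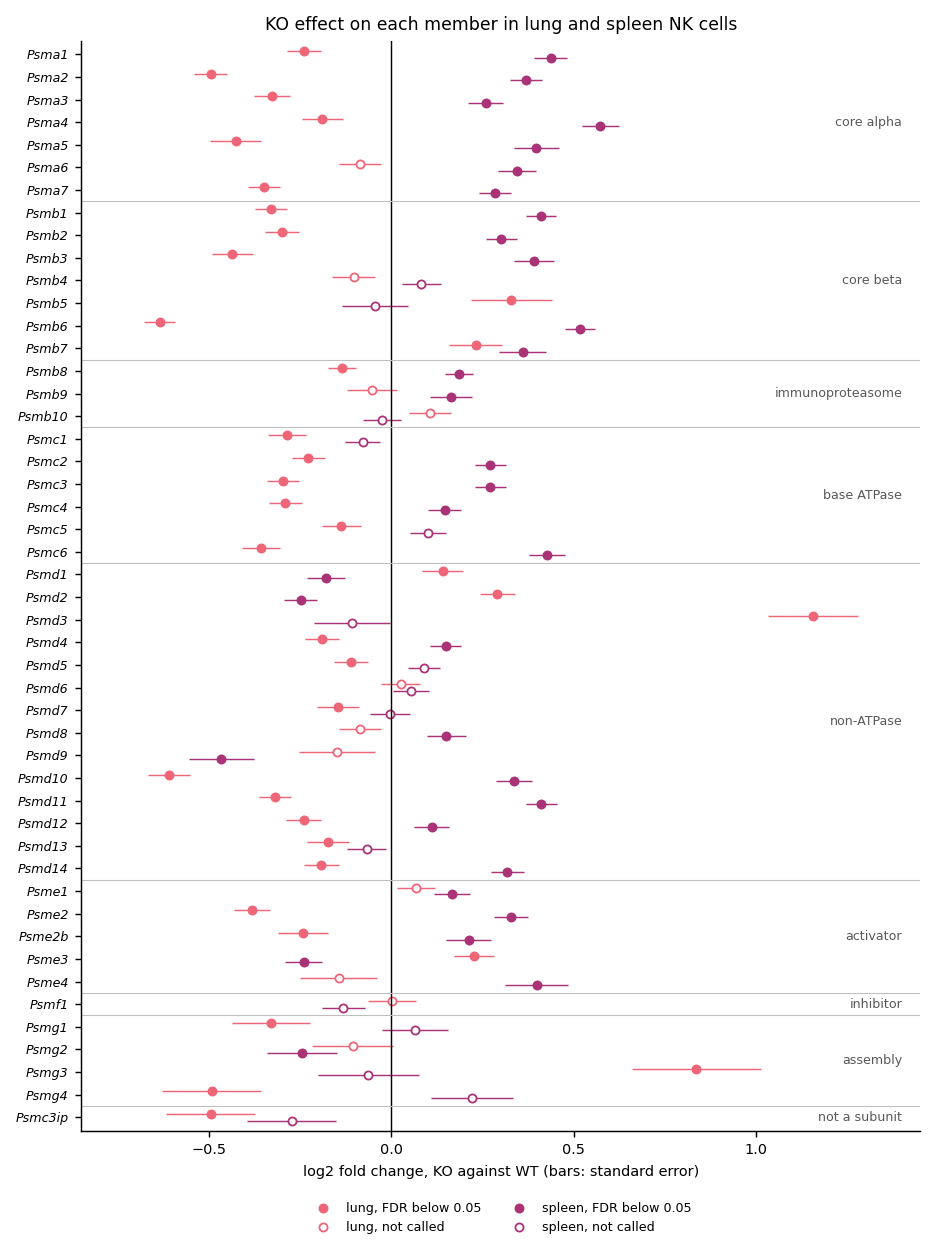
Log2 fold change of KO against WT for the 48 members, with lung and spleen in separate colours, bars for the standard error, and filled points for adjusted p below 0.05. Lung points of the core genes lie mostly left of 0 and spleen points right of it, and Psmd3 (1.16) and Psmg3 (0.84) lie farthest to the right in lung.

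With scaling by library totals in place of TMM, which shifts the median of all genes by 0.113 in lung and -0.065 in spleen, the split was 9 higher and 20 lower in lung and 22 higher and 9 lower in spleen. When a biological coefficient of variation of 0.2 was assumed for every gene, where these libraries themselves gave 2.5%, only Psmd3 in lung (log2 fold change 1.17, adjusted p = 0.0038) and 0 members in spleen passed edgeR's likelihood ratio test, with 4 and 0 members at an unadjusted p below 0.05. DESeq2 called 23 members lower and 4 higher in lung and 23 higher and 3 lower in spleen. Without lung WT replicate 1, 4 members were called higher in lung KO, and without spleen WT replicate 2, 3 were called lower in spleen KO.

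Among the constitutive catalytic genes, Psmb6 had the largest change in each organ. It stood at 553 and 551 CPM in lung WT, 357 and 355 CPM in lung KO, 384 and 367 CPM in spleen WT, and 553 and 524 CPM in spleen KO. Thus lung WT and spleen KO were high, lung KO and spleen WT were low, and the groups compared did not overlap. The log2 fold change of KO against WT was -0.64 (SE 0.04, adjusted p = 2e-15) in lung and 0.52 (SE 0.04, adjusted p = 3.8e-13) in spleen, and the difference between them was -1.15 (SE 0.06, adjusted p = 4.6e-19). The call of each held under the other scalings, with an offset for GC content, with DESeq2 and without any 1 library.

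The other catalytic constitutive genes did not follow Psmb6. Psmb5 (chr14:54614119-54618022) was at 28.7 and 32.1 CPM in lung WT, 36.0 and 38.6 CPM in lung KO, 43.7 and 39.6 CPM in spleen WT, and 47.0 and 38.3 CPM in spleen KO, so that only the lung groups stood apart by genotype. It rose in lung KO (log2 fold change 0.33, SE 0.11, adjusted p = 0.011), but not past the threshold without lung WT replicate 1 (0.22, adjusted p = 0.26), without lung KO replicate 2 (0.27, adjusted p = 0.13), with DESeq2 (0.30, adjusted p = 0.16) or with the GC offset (0.04, adjusted p = 0.81). Of its 50-base windows, 57.1% also occur in other annotated genes, among them its pseudogene Psmb5-ps, so its count is uncertain. Psmb7 rose in KO in both organs: its level was 71.1 and 75.6 CPM in lung WT, 88.8 and 82.9 CPM in lung KO, 80.9 and 76.7 CPM in spleen WT, and 106 and 98.8 CPM in spleen KO. Its log2 fold change was 0.23 in lung (SE 0.07, adjusted p = 0.0068) and 0.36 in spleen (SE 0.06, adjusted p = 8.8e-06). In lung this call was lost with DESeq2 (0.22, adjusted p = 0.11), without lung WT replicate 1 (0.17, adjusted p = 0.19) and without lung KO replicate 1 (0.20, adjusted p = 0.059).

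The 3 immunoproteasome genes had log2 fold changes of KO against WT between -0.14 and 0.18 in either organ. Psmb8 (chr17:34197721-34201454), the counterpart of Psmb5, stood at 739 and 742 CPM in lung WT, 656 and 689 CPM in lung KO, 853 and 805 CPM in spleen WT, and 951 and 932 CPM in spleen KO. The 4 groups did not overlap, in the order spleen KO, spleen WT, lung WT and lung KO. Psmb8 fell in lung KO (log2 fold change -0.14, SE 0.04, adjusted p = 0.0036), a call lost with library totals (-0.05, adjusted p = 0.36) and without lung KO replicate 1 (-0.09, adjusted p = 0.12), and rose in spleen KO (0.18, SE 0.04, adjusted p = 8.2e-05). An annotated antisense gene, Gm20496, overlaps 14.7% of its exons, and whether the counting used strand is not given in the sources used here. Likewise, on the other strand, Tap1 overlaps 5.8% of the exons of Psmb9 and Nek6 overlaps 11.8% of those of Psmb7.

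Psmb9 (chr17:34181987-34187764), the counterpart of Psmb6, was at 96.1 and 89.9 CPM in lung WT and 85.6 and 94.0 CPM in lung KO, which overlapped, and at 111 and 115 CPM in spleen WT and 127 CPM in both spleen KO libraries. Its log2 fold change was -0.05 in lung (SE 0.07, adjusted p = 0.53). It rose in spleen (0.16, SE 0.06, adjusted p = 0.014), a call lost with DESeq2 (0.18, adjusted p = 0.14), with library totals (0.10, adjusted p = 0.15) and without spleen KO replicate 2 (0.16, adjusted p = 0.17), spleen WT replicate 1 (0.14, adjusted p = 0.073) or spleen WT replicate 2 (0.20, adjusted p = 0.053). Psmb10 (chr8:105935735-105938444), the counterpart of Psmb7, was at 218 and 248 CPM in lung WT, 253 and 243 CPM in lung KO, 288 and 265 CPM in spleen WT, and 293 and 260.0 CPM in spleen KO. It did not pass the test in lung (0.10, SE 0.06, adjusted p = 0.12) or spleen (-0.03, SE 0.05, adjusted p = 0.70).

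**Figure D3:**
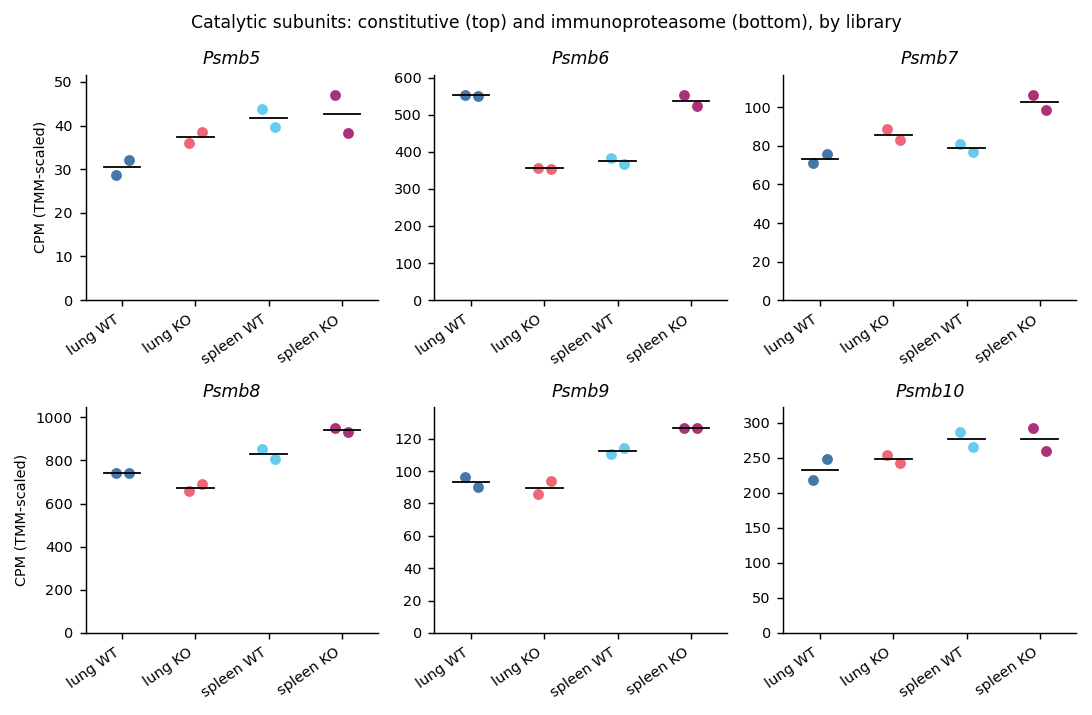
CPM of the constitutive catalytic genes Psmb5, Psmb6 and Psmb7 (top) and of their immunoproteasome counterparts Psmb8, Psmb9 and Psmb10 (bottom), 1 point per library, bars at the group mean, linear axes from 0. Psmb6 is high in lung WT and spleen KO (524 to 553 CPM) and low in the other groups (355 to 384 CPM), whereas Psmb8 and Psmb9 are higher in both spleen groups than in both lung groups.

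The balance between each immunoproteasome gene and the subunit it replaces was followed as a ratio of reads per kilobase within a library, which does not depend on how libraries are scaled. The size of a ratio depends on the merged exon lengths, so only its differences between groups are read here. Psmb8 over Psmb5 was 6.83 and 6.12 for lung WT, 4.83 and 4.74 for lung KO, 5.17 and 5.40 for spleen WT, and 5.36 and 6.46 for spleen KO. Psmb9 over Psmb6 was 0.0889 and 0.0835 for lung WT, 0.123 and 0.136 for lung KO, 0.148 and 0.160 for spleen WT, and 0.117 and 0.124 for spleen KO. Psmb10 over Psmb7 was 6.16 and 6.58 for lung WT, 5.72 and 5.88 for lung KO, 7.12 and 6.95 for spleen WT, and 5.52 and 5.28 for spleen KO. Hence in lung KO the Psmb9 ratio was higher and the Psmb8 and Psmb10 ratios lower than in lung WT, and in spleen KO the Psmb9 and Psmb10 ratios were lower than in spleen WT, without overlap between libraries. With 2 libraries against 2, the two-sided exact permutation test cannot give a p below 0.33, which each of these contrasts had, so the ratios are given as a description. With the GC offset, the KO difference of the Psmb10 ratio in spleen turned from -0.382 to 0.012 on the log2 scale, and that in lung went from -0.134 to -0.548.

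**Figure D4:**
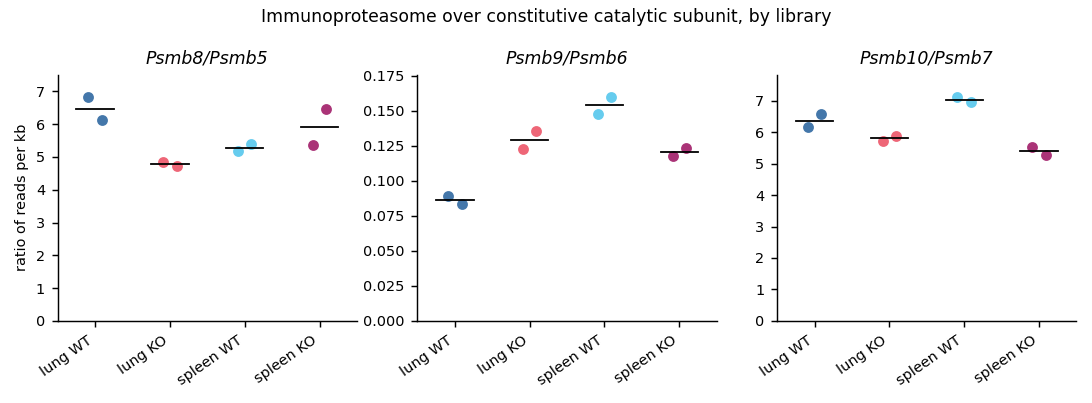
Ratio of reads per kilobase of each immunoproteasome gene to the constitutive subunit it replaces, 1 point per library, bars at the mean of the ratios of a group, linear axes from 0. The Psmb9 to Psmb6 ratio is lowest in lung WT (0.0835 and 0.0889) and highest in spleen WT (0.148 and 0.160).

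The 7 alpha genes moved as a block. In lung KO 6 of 7 fell, with Psma6 not called (log2 fold change -0.09, adjusted p = 0.21), and in spleen KO all 7 rose, with log2 fold changes between 0.26 and 0.57. Psma2 fell most in lung: its level was 452 and 427 CPM in lung WT, 309 and 316 CPM in lung KO, 355 and 353 CPM in spleen WT, and 486 and 441 CPM in spleen KO, so that lung WT and spleen KO were the high groups and no libraries overlapped between genotypes. Its log2 fold changes were -0.50 (SE 0.05, adjusted p = 1.7e-11) in lung and 0.37 (SE 0.04, adjusted p = 7.1e-09) in spleen. Psma4 rose most in spleen, from 117 and 115 CPM to 172 and 173 CPM (0.57, SE 0.05, adjusted p = 1.2e-11), and in lung fell by 0.19 on the log2 scale (SE 0.06, adjusted p = 0.0045), where the call was lost without lung WT replicate 1 (-0.19, adjusted p = 0.051), without lung KO replicate 2 (-0.18, adjusted p = 0.055) and with library totals (-0.10, adjusted p = 0.15). Psma1, Psma3, Psma5 and Psma7 fell in lung by 0.24 to 0.43 on the log2 scale and rose in spleen by 0.26 to 0.44. Other annotated genes, pseudogenes and antisense neighbours among them, hold 31.5% of the 50-base windows of Psma4, 55.4% of those of Psma5 and 22.0% of those of Psma3.

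The structural beta genes Psmb1, Psmb2 and Psmb3 followed the same course. Psmb3 was at 292 and 261 CPM in lung WT, 192 and 218 CPM in lung KO, 235 and 212 CPM in spleen WT, and 297 and 287 CPM in spleen KO, with log2 fold changes of -0.44 (SE 0.06, adjusted p = 4.5e-08) and 0.39 (SE 0.05, adjusted p = 1.3e-07). Psmb1 and Psmb2 had -0.33 and -0.30 in lung and 0.41 and 0.30 in spleen. Psmb4 did not pass the test in lung (-0.10, adjusted p = 0.14) or spleen (0.08, adjusted p = 0.20).

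All 6 ATPases of the 19S base, which drive unfolding and translocation, fell in lung KO, with log2 fold changes from -0.36 to -0.14, and 4 rose in spleen KO. Psmc6 had the largest changes, with 199 and 202 CPM in lung WT, 156 CPM in both lung KO libraries, 149 and 151 CPM in spleen WT, and 204 and 201 CPM in spleen KO. Lung WT and spleen KO again were the high groups. The log2 fold change was -0.36 in lung (SE 0.05, adjusted p = 3.1e-07) and 0.43 in spleen (SE 0.05, adjusted p = 2.7e-09). With the GC offset the lung value became -0.09 (adjusted p = 0.13), and 37.0% of the bases of Psmc6 are G or C, the lowest share among the members. Psmc2 and Psmc3 fell in lung (-0.23 and -0.30) and both rose by 0.27 in spleen, and Psmc4 fell by 0.29 in lung and rose by 0.15 in spleen, where its call was lost with DESeq2 (adjusted p = 0.059), with library totals (adjusted p = 0.15) and without spleen WT replicate 2 (0.09, adjusted p = 0.22) or spleen KO replicate 2 (0.11, adjusted p = 0.22).

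The 14 Psmd genes moved in both directions, with 8 that fell and 3 that rose in lung KO and 6 that rose and 3 that fell in spleen KO. Psmd10 (gankyrin, an assembly chaperone of the base) fell in lung from 187 and 176 CPM to 119 and 119.9 CPM and rose in spleen from 172 and 160.2 CPM to 206 and 208 CPM. Its log2 fold changes were -0.61 (SE 0.06, adjusted p = 2e-11) and 0.34 (SE 0.05, adjusted p = 5.3e-07). Psmd11, a lid subunit, fell by 0.32 in lung and rose by 0.41 in spleen on the log2 scale, and Psmd14, the deubiquitinating subunit of the lid, fell by 0.19 and rose by 0.32. The lung call of Psmd14 was lost without lung KO replicate 2 (-0.13, adjusted p = 0.083) and with library totals (-0.10, adjusted p = 0.073).

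Psmd3, a lid subunit, went the other way. It was at 17.0 and 17.6 CPM in lung WT, 43.0 and 35.1 CPM in lung KO, 27.2 and 29.7 CPM in spleen WT, and 23.8 and 27.3 CPM in spleen KO. Both lung KO libraries were above all other libraries and both lung WT libraries below them, while the spleen groups overlapped. The log2 fold change was 1.16 in lung (SE 0.12, adjusted p = 5.6e-10), the largest among the members in either direction, and -0.11 in spleen (SE 0.10, adjusted p = 0.39), with a difference of 1.26 between the organs (SE 0.16, adjusted p = 2e-08). Under the alternatives other than the assumed variation its lung value ranged from 0.90 to 1.32, and each kept the call. Psmd1 and Psmd2, the large scaffold subunits of the base, rose in lung KO (0.14 and 0.29) and fell in spleen KO (-0.18 and -0.25). The calls of Psmd2 held under those alternatives. Those of Psmd1 did not: DESeq2 gave an adjusted p of 0.23 in lung and 0.079 in spleen, and the log2 fold change was 0.09 in lung without lung WT replicate 1 (adjusted p = 0.39), 0.11 without lung KO replicate 2 (adjusted p = 0.24) and -0.11 in spleen without spleen WT replicate 2 (adjusted p = 0.23). Psmd9, an assembly chaperone, fell in spleen KO (-0.47, SE 0.09, adjusted p = 3.2e-05), and 25.5% of its exons are overlapped by the antisense gene Gm26745. Psmd6 was the only member not called in any comparison, with 164 to 189 CPM over the 8 libraries.

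**Figure D5:**
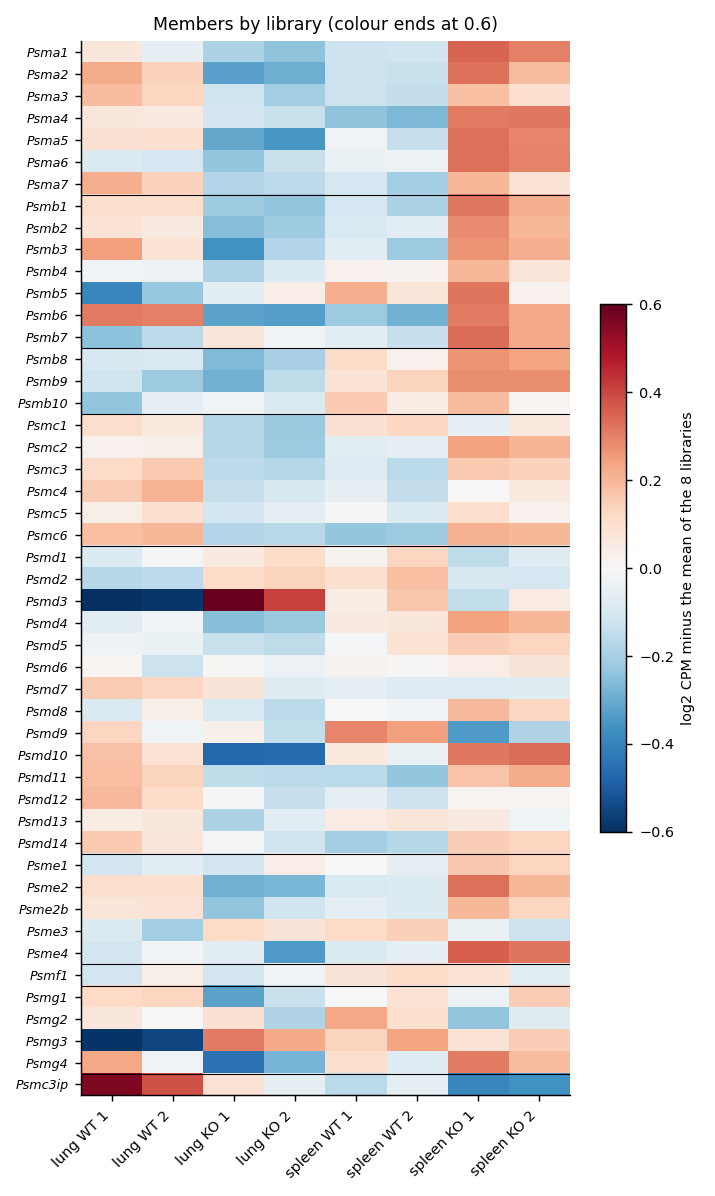
Log2 CPM of each of the 48 members in each library minus that member's mean over the 8 libraries, with lines between classes and a colour scale that ends at 0.6 in both directions. Most core and ATPase rows are red in lung WT and spleen KO and blue in lung KO, and Psmd3 and Psmg3 show the reverse in lung.

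The activators open the gate of the core particle. Psme1 and Psme2 form the interferon-inducible cap PA28, and they moved unequally. Psme1 was at 196 and 203 CPM in lung WT and 196 and 218 CPM in lung KO, which overlapped, and at 212 and 205 CPM in spleen WT and 237 and 232 CPM in spleen KO, where it rose (log2 fold change 0.17, SE 0.05, adjusted p = 0.0041). The spleen call was lost with library totals (0.10, adjusted p = 0.088) and without spleen WT replicate 2 (0.13, adjusted p = 0.11). Psme2 was at 297 and 294 CPM in lung WT, 226 and 228 CPM in lung KO, 259 and 259.9 CPM in spleen WT, and 346 and 316 CPM in spleen KO, with log2 fold changes of -0.38 (SE 0.05, adjusted p = 2.3e-08) and 0.33 (SE 0.05, adjusted p = 1.3e-07). Of the 50-base windows of Psme2 and Psme2b, 59.3% and 69.3% also occur in other annotated genes, mutually and in Gm7928, so their counts are uncertain. Psme3, a nuclear activator, rose in lung KO (0.23, SE 0.06, adjusted p = 0.00058) and fell in spleen KO (-0.24, SE 0.05, adjusted p = 0.00011), the latter not without spleen KO replicate 2 (-0.18, adjusted p = 0.075). Psme4 rose in spleen KO from 35 and 35.6 CPM to 47.7 and 46.5 CPM (0.40, SE 0.09, adjusted p = 0.00018). The inhibitor Psmf1 was not called in lung (0.00, adjusted p = 0.99) or spleen (-0.13, adjusted p = 0.055).

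Among the assembly genes, whose products help the alpha ring form, Psmg3 rose in lung KO from 7.58 and 7.77 CPM to 14.1 and 13.3 CPM (log2 fold change 0.84, SE 0.18, adjusted p = 0.00013), while the spleen groups lay between 12.1 and 13.4 CPM and overlapped. Psmg1 and Psmg4 fell in lung KO (-0.33 and -0.49). Both calls were lost with DESeq2 (adjusted p = 0.095 and 0.063) and without lung WT replicate 1 (-0.35, adjusted p = 0.061, and -0.33, adjusted p = 0.18), and that of Psmg1 also with library totals (-0.24, adjusted p = 0.063) and without lung KO replicate 1 (-0.25, adjusted p = 0.099). Psmg2 fell in spleen KO (-0.24, adjusted p = 0.028), a call lost with DESeq2 (-0.28, adjusted p = 0.21), with no filter (adjusted p = 0.051) and without any 1 of the 4 spleen libraries (adjusted p from 0.052 to 0.13). Psmc3ip fell in lung KO from 28.4 and 25.1 CPM to 20.5 and 18.5 CPM (-0.50, SE 0.12, adjusted p = 0.00081), and not past the threshold with DESeq2 (adjusted p = 0.054) or without lung WT replicate 1 (-0.39, adjusted p = 0.071). Its exons overlap those of Mlx on the other strand over 21.2% of their length.

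Lung and spleen NK cells were then compared within a genotype. These contrasts share their libraries with the KO contrasts. In WT, 20 members were higher in lung, 11 higher in spleen and 17 not called, against 27.7% and 29.3% of all genes. At 1.5-fold or more, 1 member was higher in lung and 2 in spleen, against 28.5% of all genes in either direction. Constitutive core genes were mostly higher in lung (10 of 14, with 1 higher in spleen, Psmb5, a call lost with the GC offset, adjusted p = 0.054, and without lung WT replicate 1, adjusted p = 0.06), with Psmb6 at a log2 difference of 0.56 (SE 0.04, adjusted p = 3.2e-14). With library totals 7 core genes were higher in lung and 4 in spleen, and their median log2 difference went from 0.226 to 0.12. The 3 immunoproteasome genes were all higher in spleen, by log2 differences of -0.16 (Psmb8, adjusted p = 0.00069), -0.27 (Psmb9, adjusted p = 0.00059) and -0.25 (Psmb10, adjusted p = 0.00023). Their calls did not hold with the GC offset, under which the values were 0.01 (adjusted p = 0.87), -0.08 (adjusted p = 0.29) and -0.04 (adjusted p = 0.60), and that of Psmb10 was also lost without lung WT replicate 1 (-0.13, adjusted p = 0.12). With library totals, which shift the median of all genes by -0.116, the split of the members was 14 higher in lung and 20 higher in spleen, and with the GC offset 24 and 7. Without lung WT replicate 1, 6 members were called higher in spleen.

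In KO, the organs differed the other way for the core: 34 members were higher in spleen, 5 in lung and 9 were not called, against 31.7% and 33.9% of all genes. At 1.5-fold or more 3 members were higher in spleen and 0 in lung, with 33.2% of all genes called in either direction. Among the 14 constitutive core genes 13 were higher in spleen, with a median log2 difference of -0.47, and so were all 3 immunoproteasome genes. Psmb8 and Psmb9 were lower in lung KO by 0.48 and 0.49 on the log2 scale (adjusted p = 1.3e-13 and 5.4e-09) and kept this call under every alternative except the assumed variation of 0.2. Psmb10 had -0.12 (adjusted p = 0.045), lost with DESeq2, with library totals and with at least 10 counts in every library (adjusted p = 0.077), and without lung KO replicate 2 (-0.09, adjusted p = 0.28) or spleen KO replicate 1 (-0.07, adjusted p = 0.25). The largest difference was that of Psmd10 (-0.80, SE 0.05, adjusted p = 7e-16). Without spleen KO replicate 2, the deepest library, 3 members were called higher in lung. Looking at the order of group means, 24 members (50%) had lung WT and spleen KO as their 2 highest groups, against 20.7% of all genes tested, and 12 (25%) had both spleen groups, against 18.4%.

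Other genes of the pathway were followed from fixed lists. For comparison, 29.2% of all genes tested were called higher and 26.4% lower in lung KO, and 28.2% and 28.9% in spleen KO. Among 11 tested subunits and partners without a Psm name, 4 rose and 4 fell in lung KO and 8 rose and 2 fell in spleen KO. Pomp, the maturation factor of the core particle, went from 439 and 416 CPM in lung WT to 286 and 285 CPM in lung KO and from 318 and 313 CPM in spleen WT to 461 and 417 CPM in spleen KO, the same high and low groups as Psmb6, with log2 fold changes of -0.59 (adjusted p = 2.9e-13) and 0.45 (adjusted p = 8.4e-11). Uchl5, a deubiquitinase bound to the 19S particle, fell by 0.52 in lung and rose by 0.51 in spleen. Adrm1, the ubiquitin receptor that holds it, rose by 0.35 in lung and fell by 0.44 in spleen. Of the 14 ubiquitin and shuttle genes, 6 rose and 5 fell in lung and 4 rose and 8 fell in spleen. Ubb, a polyubiquitin gene, fell by 0.61 in lung and rose by 0.43 in spleen. Ubqln2, a shuttle receptor, fell in spleen KO from 35.7 and 38.9 CPM to 10.8 and 12.9 CPM (-1.58, adjusted p = 3.6e-15).

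Among 8 regulators of proteasome transcription, 5 rose and 1 fell in lung KO and 3 rose and 3 fell in spleen KO. Nfe2l1, which encodes the factor that restores proteasome synthesis when degradation is impaired, rose in lung KO from 17.2 and 14.8 CPM to 25.4 and 25 CPM (log2 fold change 0.62, adjusted p = 0.00017) and was not called in spleen (-0.18, adjusted p = 0.29). Hsf1, the heat shock factor, rose by 1.07 in lung and fell by 0.62 in spleen on the log2 scale, and had the smallest adjusted p of the list in lung. Nfe2l2 rose in both organs (0.51 and 0.28), as did Ddi2 (0.35 and 0.18). Nrf1, the gene of nuclear respiratory factor 1, rose by 0.42 in lung and fell by 0.44 in spleen. The gene that fell in lung was Foxo4 (-0.90), which was at 3.36 and 3.37 CPM in lung WT.

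The interferon signalling genes and the MHC neighbours of Psmb8 and Psmb9 mostly went the other way from the core genes. Of 17 tested, 11 rose and 1 fell in lung KO, and 2 rose and 12 fell in spleen KO. Over all genes 29.2% were called higher and 26.4% lower in lung, and 28.2% and 28.9% in spleen. The called genes that went with the core were Nlrc5 and B2m. Nlrc5 fell by 0.27 in lung and rose by 0.405 in spleen on the log2 scale. B2m rose by 0.32 in spleen and was not called in lung (-0.02). Tap1, which lies head to head with Psmb9 and encodes a subunit of the peptide transporter, was at 55.7 and 63.5 CPM in lung WT, 84.7 and 89.0 CPM in lung KO, 86.4 and 89.7 CPM in spleen WT, and 58.1 and 55.5 CPM in spleen KO. Lung KO and spleen WT were therefore its high groups, the reverse of Psmb6, with log2 fold changes of 0.58 in lung and -0.66 in spleen. Tap2, the other transporter subunit, rose by 1.32 in lung and fell by 1.42 in spleen, and the loading factor Tapbp changed by 0.43 and -0.66. Irf1, an inducer of immunoproteasome genes, rose in lung (0.49) and was not called in spleen (0.07). Of 16 interferon-induced genes, 1 rose and 5 fell in lung KO and 7 rose and 1 fell in spleen KO. Xaf1 fell by 0.78 in lung and rose by 0.315 in spleen on the log2 scale, the directions of most core genes. Usp18 rose by 0.61 in spleen and was not called in lung (-0.14). Mx1 fell in both organs (-0.67 and -0.89), and Oas1a was the gene that rose in lung (0.76). For Isg15 the log2 fold change was 0.09 in lung and 0.19 in spleen and for Ifit1 -0.07 and 0.06, none of which passed the test.

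The genes whose log2 CPM followed that of Psmb8 most closely over the 8 libraries, among 12595, were 1700025G04Rik (Pearson's r = 0.993), Dnajc15, Clp1 and Fam189b (each 0.989) and Pglyrp1 (0.988). These values describe libraries that share organ, genotype and depth.

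Several measured quantities moved with the genotypes beside the member genes. The summed level of the 9 NK markers was 51215 to 52718 CPM in lung WT and 40506 to 40902 CPM in lung KO, and 36965 to 37527 CPM in spleen WT and 48169 to 50519 CPM in spleen KO. Gzma and Nkg7 made up most of this sum, with means of 24830 and 12930 CPM in lung WT and 18000 and 9087 CPM in lung KO. Of these markers 6 fell and 2 rose in lung KO and 7 rose and 2 fell in spleen KO. The 2 that rose in lung and fell in spleen were Prf1 (log2 fold changes 0.74 and -0.48) and Tbx21 (1.135 and -1.18). Eomes was not called in lung (0.025). In bulk RNA, fewer cells of a type and less RNA per cell cannot be told apart. Lung epithelial markers (5 listed) summed to 252 to 254 CPM in lung WT, 360 to 398 CPM in lung KO and at most 0.7 CPM in spleen. Of these, Sftpc, Sftpa1 and Sftpb rose in lung KO, Scgb1a1 fell from a mean of 85.3 to 62.2 CPM (log2 fold change -0.46, adjusted p = 5.7e-06), and Epcam was below the filter. Erythroid markers (5 listed) summed to 21.4 to 25.9 CPM in lung WT, 45 to 51.4 CPM in lung KO and at most 1 CPM in spleen. Endothelial markers (4 listed) summed to 70.5 to 79.2 CPM in lung WT, 99.9 to 100.8 CPM in lung KO and 65 to 74.9 CPM in spleen. In spleen the sum was Pecam1 alone, with Cdh5, Cldn5 and Kdr at 0. In lung KO, Pecam1 and Cldn5 rose (log2 fold changes 0.41 and 1.23), and Cdh5 and Kdr were not called (-0.49 and 0.24). All 5 neutrophil markers were at 0 reads in every library, and Adgre1 of the 8 macrophage and monocyte markers and Flt3 of the 5 dendritic cell markers likewise. T cell markers (6 listed) summed to 38.9 to 47.1 CPM in lung and 131 to 157 CPM in spleen, and B cell markers (6 listed) to 5.4 to 10.1 and 40.8 to 46.3 CPM. Macrophage and monocyte markers summed to 20.6 to 43.7 CPM over the 8 libraries. Within them Lyz2 rose (0.87) and Cd68 fell (-0.60) in lung KO. Dendritic cell markers summed to 126 to 154 CPM, nearly all of it Itgax (125 to 153 CPM), while Flt3, Xcr1, Siglech and Clec9a were at no more than 1.05 CPM each. The part of these cells in the member results was not tested. Across 12504 genes the log2 fold change also ran with GC content, with Spearman's rho of 0.289 in lung and -0.272 in spleen, and across the 48 members with 0.19 and -0.372, where genes are not independent. With each library's GC trend removed, 34 members fell and 6 rose in lung KO and 33 rose and 5 fell in spleen KO.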

How the data were processed

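The 8 libraries held RNA of sorted lung or spleen NK cells, sequenced with reads of 50 bp. The authors aligned the reads to mm10 (GRCm38) with HISAT2 2.1.0, counted them on genes with HTSeq 0.11.1 per the labels, and deposited raw counts per gene symbol without normalization. Strand setting and gene annotation of the counting are not given in the sources used here. Reads that the counting assigned to no feature (52.67% to 55.05% of the reads listed per library) and ambiguous reads were left out. How many of the former lie within genes, in introns or on the other strand, is not known. A floor of 3 reads equalled at most 0.958 CPM, and floors cover counting error only.

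Counts were fitted with edgeR 4.0.16 in R 4.3.3 (filterByExpr, TMM scaling, 1 mean per group, quasi-likelihood test, Benjamini-Hochberg adjustment over all 12595 genes tested, calls at 0.05). Standard errors were derived from the test statistic, and CPM used TMM-scaled library sizes. Alternatives were DESeq2 1.42.0, edgeR's likelihood ratio test with the biological coefficient of variation set to 0.2, other scalings and filters, a fit of the 4 libraries of a comparison, the replicate number as a block, an offset for each library's trend with GC content, a pseudocount of 2 in place of 0.5 reads for the ratios, and leaving out each library. On simulated counts of the lung contrast (10426 genes tested, 200 changed), the test recovered 37.7% of 1.25-fold, 68.8% of 1.5-fold and 92.5% of 2-fold changes, with 1.49% false calls. Every simulated gene had a biological coefficient of variation of 2.5%, the low spread of these libraries. Far fewer genes were changed than the 55.6% called in the real contrast. These rates therefore do not cover variation between mice.

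Named members were the catalytic pairs, Psme1, Psme2, members never called, and in each comparison and class up to 3 per direction with the smallest p among called members whose libraries did not overlap. Further members were named to account for each class. Pathway genes were named from fixed lists as examples, not always those with the smallest p, and a few of them were uncalled. The members and lists were chosen with earlier results of these data known. GENCODE M21 (GRCm38) gave gene positions, lengths (all exons of a gene merged) and GC content.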

Additional observations from a re-analysis of the deposited data

Results flagged for a closer look

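The effect of the enhancer deletion differed between lung and spleen by the direct test of that difference (edgeR's quasi-likelihood test) for 39 members, with the KO effect higher in lung for 7 and lower in lung for 32. Over all genes tested, 32.5% were called with a KO effect higher in lung and 29.0% with one lower in lung. All values below are the KO effect in lung minus that in spleen on the log2 scale. In the alpha ring the difference was -0.68 for Psma1, -0.86 for Psma2, -0.59 for Psma3, -0.76 for Psma4, -0.82 for Psma5, -0.43 for Psma6 and -0.63 for Psma7. Among the constitutive beta genes it was -0.74 for Psmb1, -0.60 for Psmb2, -0.83 for Psmb3, -0.19 for Psmb4, 0.37 for Psmb5 and -1.15 for Psmb6. For the immunoproteasome genes Psmb8 and Psmb9 it was -0.32 and -0.22.

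Among the ATPases the difference was -0.21 for Psmc1, -0.50 for Psmc2, -0.57 for Psmc3, -0.44 for Psmc4, -0.24 for Psmc5 and -0.78 for Psmc6. Among the Psmd genes it was above 0 for Psmd1 (0.32), Psmd2 (0.54), Psmd3 (1.26) and Psmd9 (0.32), and below 0 for Psmd4 (-0.34), Psmd5 (-0.20), Psmd8 (-0.24), Psmd10 (-0.94), Psmd11 (-0.73), Psmd12 (-0.35) and Psmd14 (-0.51). Activators had -0.71 for Psme2, -0.45 for Psme2b, 0.47 for Psme3 and -0.54 for Psme4, and the assembly genes had -0.39 for Psmg1, 0.90 for Psmg3 and -0.71 for Psmg4. Of the 33 of these members followed through the alternatives, 28 kept this call under all of them except the assumed variation of 0.2. Psmb5, Psmb9, Psmd9, Psmg1 and Psmg3 did not, and the values of Psmb5 ranged from -0.172 to 0.535. All groups had 2 libraries, too few to look for single libraries that stand apart within a group.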

How the results depend on the processing

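With the assumed variation of 0.2 the members called higher and lower in KO fell to 1 and 0 in lung and 0 and 0 in spleen, those with a KO effect higher and lower in lung to 1 and 1, and those higher in lung and in spleen to 0 and 0 in WT and 0 and 1 in KO. DESeq2 called 4 higher in lung, 3 lower in spleen, and 4 with a KO effect higher in lung. Library totals gave 9 lower in spleen KO and 20 higher in spleen in WT, and the GC offset 7. Leaving out 1 library gave 4 to 8 higher and 24 to 30 lower in lung, 22 to 28 higher and 3 to 6 lower in spleen, 5 to 7 and 29 to 31 for the difference, 17 to 22 and 6 to 11 for lung against spleen in WT, and 3 to 5 and 30 to 34 in KO. With the replicate number as a block the counts were 7 and 30 in lung, 28 and 6 in spleen, and 7 and 32 for the difference. Deviations of replicate 1 from its group mean were compared between WT and KO over 5103 genes. They correlated by -0.0139 in lung and 0.169 in spleen, which does not show that numbers pair the libraries. Pairing of lung with spleen by number was not examined.

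With the GC offset the log2 ratio of Psmb8 to Psmb5 changed by -0.314 in lung KO and differed by -0.102 between organs in KO. That of Psmb9 to Psmb6 was -0.266 for spleen KO and turned to -0.022 between organs in KO. That of Psmb10 to Psmb7 was -0.548 for lung KO and turned to 0.012 for spleen KO, 0.201 between organs in WT and -0.36 in KO. The GC offset, without and with the replicate block, also turned Psmb5 in the difference (-0.172, -0.166) and the WT organ difference of Psmb8 (0.007, 0.006) and Psmd4 (0.06, 0.061). With library totals the log2 change of the core sum was -0.253 in lung KO, 0.307 in spleen KO, 0.154 between organs in WT and -0.406 in KO. The 19S sum had -0.084, 0.067, -0.005 and -0.156, and the immunoproteasome sum 0.012, 0.072, -0.295 and -0.354, so that the 19S WT value and the immunoproteasome lung value turned. RLE scaling gave 0.148 for the 19S sum in spleen KO and 0.116 between organs in WT. The cause was not tested.

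Leaving out 1 library gave log2 ratio changes of Psmb8 to Psmb5 from -0.514 to -0.355 (lung KO), 0.021 to 0.29 (spleen KO), 0.211 to 0.371 (organs, WT) and -0.433 to -0.165 (organs, KO). For Psmb9 to Psmb6 they were 0.511 to 0.654, -0.408 to -0.294, -0.892 to -0.777 and 0.028 to 0.171, and for Psmb10 to Psmb7 -0.181 to -0.086, -0.413 to -0.35, -0.192 to -0.097 and 0.072 to 0.135. Depth limits the lowest members: Psmg3 had 7.58 CPM in a library of 8444054 reads.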
